A study of Mus musculus with 8 samples.

Results

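The genes described here carry or dampen the insulin and leptin signals in cells, and 1 of them encodes a receptor for adiponectin. They were chosen by symbol as a set of 10 genes (Insr, Irs1, Irs2, Pik3r1, Akt1, Stat3, Socs3, Ptpn1, Ptpn11 and Adipor1), of which 8 had at least 1 array probe annotated to that gene alone, with 9 probes among them, out of 14411 probes that named 1 gene. No probe naming Insr or Irs2 alone was used here. Hypothalamus RNA was compared between male C57BL/6J mice, an inbred strain, that gained much weight (high gainers) and mice that gained little (low gainers). All animals had received a high-fat diet for 6 weeks, a low-fat diet for 2 weeks and the high-fat diet for another 6 weeks, so both groups shared the diets and differed in weight gain. Per the paper's account of this schedule, the low-fat food was restricted to less than each mouse had eaten before the high-fat diet. The mice were young adults when the diet began, per the study's methods. Each group was 1 RNA pool of 20 mice, measured on 4 arrays. Those 4 arrays are technical replicates, and every p-value below measures only the spread between arrays and carries nothing on the spread between mice.

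Insulin binds its receptor (Insr), which phosphorylates the adaptor proteins Irs1 and Irs2. These recruit PI3-kinase, whose regulatory subunit p85 alpha is encoded by Pik3r1, and PI3-kinase in turn activates the kinase Akt1. Leptin acts through its own receptor and Jak2 on the transcription factor Stat3, which switches on Socs3, a feedback inhibitor of both pathways. Ptpn1 encodes PTP1B, a phosphatase that removes the activating phosphates from Jak2 and from the insulin receptor. Ptpn11 encodes SHP2, a phosphatase grouped here with Ptpn1 and Socs3, although it is also known to carry growth factor and leptin receptor signals forward to the MAP kinases. Adipor1 is a receptor for adiponectin, a fat-derived hormone that acts through AMP-activated kinase. In the hypothalamus, insulin and leptin restrain food intake, and a weakened response to both is a known feature of diet-induced obesity.

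The DNA before the Socs3 start site is shown because Socs3 and its known activator Stat3 both belong to the set. The 250 bases before the RefSeq start of Socs3 (chr11:117969367-117969616, minus strand, build GRCm38.p6) held 1 match to the STAT motif TTCNNNGAA, printed in capitals, with its first base 154 bases before the start.

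Socs3: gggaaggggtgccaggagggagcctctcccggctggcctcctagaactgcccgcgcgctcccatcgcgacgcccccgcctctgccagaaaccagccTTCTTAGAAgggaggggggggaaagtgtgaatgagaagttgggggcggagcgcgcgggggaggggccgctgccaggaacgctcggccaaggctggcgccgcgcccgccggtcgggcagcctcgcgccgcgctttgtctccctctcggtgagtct

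The motif, searched on both strands, was present in 7.02% of 32851 promoter windows of the same length, and in 1 of the 12 windows of the 9 genes of the set that had one, a share near that of all windows. The FOXO motif GTAAACA, for the transcription factors that Akt holds out of the nucleus, was present in 3.17% of windows and in 1 window of the set, that of one Akt1 start site. A match describes letters in this window only, and the arrays measured transcripts, not binding.

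Values are the normalized intensities deposited by the authors, on a linear scale with no unit. They had been read by chemiluminescence from a 1-colour Applied Biosystems mouse array, and the median on an array lay between 0.714 and 1.05. Levels are compared within a probe only, since probes differ in brightness for reasons other than transcript number. Between 13657 probes (low gainer array 3, the fewest) and 16873 probes (low gainer array 4, the most) had a value on a given array. Low gainer array 2 stood apart from the others, with a correlation across 5375 probes between 0.227 and 0.241 with each other array, whereas the other 7 arrays correlated between 0.949 and 0.990 with each other. The comparison therefore set high gainer arrays 1 to 4 against low gainer arrays 1, 3 and 4, and low gainer array 2 is given apart. Its values may not belong to the probes they are listed under, which could not be settled from the files, so each of them is given as listed and not as a level of the named gene. Of the peptide and regulator genes that mark the hypothalamus, 12 of 21 had a value on all 7 arrays, among them Avp, Oxt, Hcrt and Npy. In pooled tissue RNA, fewer cells of a type and less RNA per cell cannot be told apart.

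None of the signalling genes passed the test between the pools. Of the 10 genes, 6 had a value on all 7 arrays and could be tested (Pik3r1, Akt1, Socs3, Ptpn1, Ptpn11 and Adipor1). At an adjusted p of 0.05 by limma over all 11169 probes, 0 of the 6 were called, against 0.0269% of all probes called in either direction. At an unadjusted p under 0.05 by limma, 1 gene was higher in high gainers (Akt1), against 3.07% of all probes, and 1 was lower (Ptpn11), against 3.41%, or 6.48% of all probes in either direction. The high and low gainer arrays did not overlap for 1 of the 6, Ptpn11, which was lower in high gainers. Over all probes, 2.07% were without overlap and higher, 2.7% without overlap and lower, and 4.77% either. By the methods' t-test, 0 of the 6 genes had an unadjusted p under 0.05. With the limits the methods name (unadjusted p 0.01 and a change of 1.5-fold), that test took 19 of all probes and 0 of the 6 genes, and limma took 115 probes and 1 gene of the 6, Akt1.

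**Figure D1:**
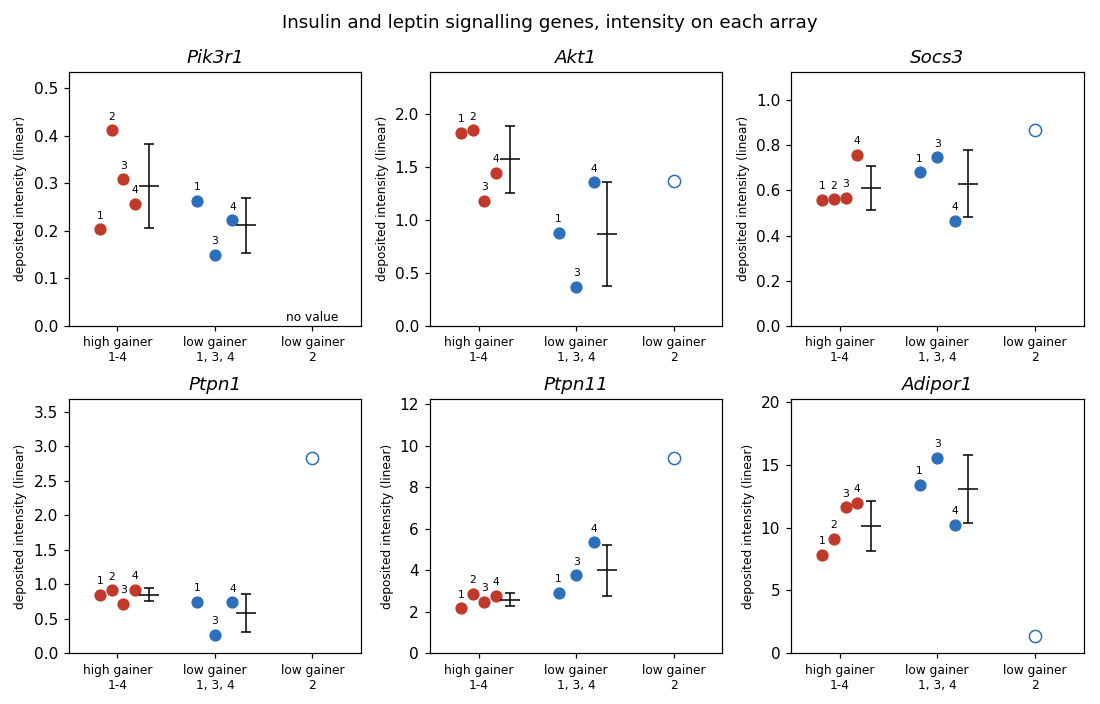
Deposited intensity (linear scale) of the 6 tested genes on each array, with high gainer arrays in red, low gainer arrays 1, 3 and 4 in blue and low gainer array 2 as an open circle; numbers are replicate numbers and black bars the mean and SD. For Ptpn11 the high gainer arrays end at 2.86 and the low gainer arrays start at 2.90, and for the other 5 genes the 2 pools overlap.

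Among the activators, Akt1 showed the largest difference of the set. Its intensity was 1.82, 1.84, 1.18 and 1.44 on high gainer arrays 1 to 4, against 0.876, 0.368 and 1.35 on low gainer arrays 1, 3 and 4. The pools overlapped, since low gainer array 4 lay above high gainer array 3, and the lowest value of all was that of low gainer array 3. The mean was 1.57 ± 0.318 (SD, n = 4) in high gainers and 0.865 ± 0.492 (SD, n = 3) in low gainers. After quantile normalization the Akt1 ratio of high to low gainers was 2.00 (95% interval 1.25 to 3.19), for which limma gave an unadjusted p of 0.00659 and an adjusted p of 0.750. It ranked 84 of 11169 probes by p, and 0.403% of probes had a larger difference in size. Leaving out low gainer array 3 gave a ratio of 1.46 and, by limma, an adjusted p of 0.999, within a range from 0.127 to 0.999 over all alternatives.

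Pik3r1, the p85 alpha subunit of PI3-kinase, was measured near the dim end of the arrays. It had an intensity of 0.203, 0.411, 0.309 and 0.256 on high gainer arrays 1 to 4, against 0.263, 0.150 and 0.222 on low gainer arrays 1, 3 and 4. Its values on high gainer array 1 and low gainer array 3 lay under the tenth percentile of all values on their array (between 0.143 and 0.264). The pools overlapped, with high gainer array 1 below low gainer arrays 1 and 4. The ratio of high to low gainers was 1.34 (95% interval 0.840 to 2.15; limma adjusted p 0.855). As for Akt1, low gainer array 3 held the lowest value. Without that array the log2 difference of Pik3r1 was 0.15.

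The other activators of the set had no value on most or all arrays. Irs1, the first insulin receptor substrate, had a probe with no value on any of the 8 arrays. Stat3, the leptin-activated transcription factor, had no value on the 4 high gainer arrays, nor on 2 of the low gainer arrays compared (1 and 3). It had a value of 0.276 on low gainer array 4, and 1.55 was listed for it on low gainer array 2, whose match to the probes is in doubt. The pools could therefore not be compared for Stat3 from the deposited values. Lepr, the leptin receptor that lies upstream of Stat3, likewise had no value on the 7 compared arrays. The paper also measured Stat3 and Lepr by qRT-PCR in individual high and low gainers, and those measurements are not part of the values here. Why a cell of the table was left empty is not stated, and an empty cell is not read here as an absent transcript.

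Of the genes that dampen the signal, Ptpn1 and Ptpn11 stood on opposite sides. Ptpn1, which encodes PTP1B, had an intensity of 0.845, 0.908, 0.715 and 0.921 on high gainer arrays 1 to 4, against 0.741, 0.260 and 0.734 on low gainer arrays 1, 3 and 4. High gainer array 3 lay between the values of the low gainer arrays, and low gainer arrays 1 and 4 lay inside the high gainer range. The ratio of high to low gainers was 1.57 (95% interval 1.00 to 2.48; limma adjusted p 0.756). Without low gainer array 3 it was 1.16, so that most of the difference came with that 1 array.

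Ptpn11, which encodes SHP2, was the gene of the set with no overlap between the pools. Its brighter probe had an intensity of 2.16, 2.86, 2.48 and 2.76 on high gainer arrays 1 to 4, against 2.90, 3.74 and 5.33 on low gainer arrays 1, 3 and 4. The gap between the pools was narrow, from 2.86 on high gainer array 2 to 2.90 on low gainer array 1. The ratio of high to low gainers was 0.661 (95% interval 0.481 to 0.907), and limma gave an unadjusted p of 0.0141 and an adjusted p of 0.750. Across alternative settings the adjusted p by limma ran from 0.0660 (without low gainer array 1) to 0.999. Without low gainer array 4, which had the highest value, the log2 difference was -0.37, against -0.60 with all 7 arrays. A second Ptpn11 probe had 1 value, 0.167 on low gainer array 3.

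Socs3, the feedback inhibitor induced by Stat3, showed no difference in level beyond its spread. Its intensity was 0.558, 0.560, 0.568 and 0.759 on high gainer arrays 1 to 4, against 0.681, 0.747 and 0.464 on low gainer arrays 1, 3 and 4. The low gainer arrays spanned nearly the whole range of the high gainer arrays and went below it. The ratio of high to low gainers was 0.936 (95% interval 0.632 to 1.39; limma adjusted p 0.968). The interval leaves room for a difference of either sign.

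Adipor1, the adiponectin receptor, had a value on all 8 arrays. It had an intensity of 7.83, 9.10, 11.6 and 11.95 on high gainer arrays 1 to 4, against 13.4, 15.6 and 10.2 on low gainer arrays 1, 3 and 4. Low gainer arrays 1 and 3 lay above all high gainer arrays and low gainer array 4 lay among them. The ratio of high to low gainers was 0.780 (95% interval 0.590 to 1.03; limma adjusted p 0.784). Adipor2, the second receptor for the hormone, had a log2 difference of -0.16 with its brighter probe and of -0.21 with its dimmer probe, and neither passed.

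**Figure D2:**
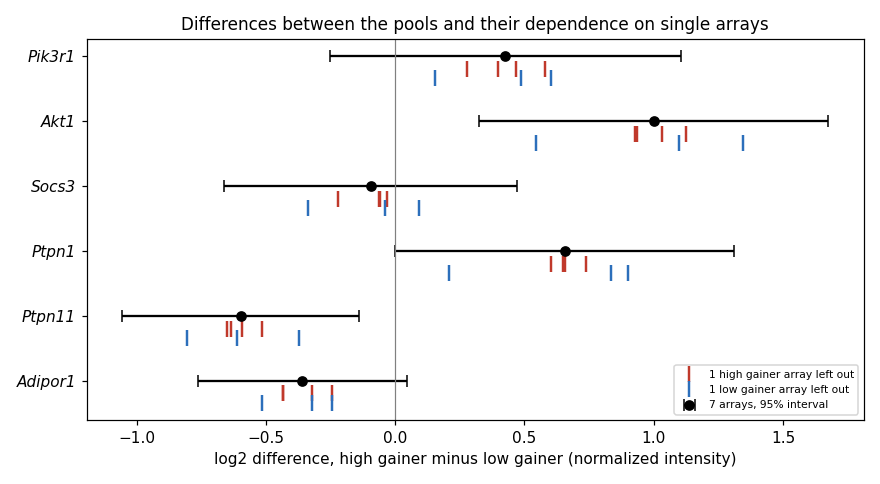
Log2 difference, high gainer minus low gainer, for the 6 tested genes (black points, 95% interval by limma on 7 arrays) and the same difference with 1 high gainer array (red ticks) or 1 low gainer array (blue ticks) left out. Akt1 moved between 0.55 and 1.35 and Ptpn1 between 0.21 and 0.90 with the array left out.

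Exact permutation tests of the single genes, two-sided and over all ways of choosing 4 of the 7 arrays, could reach no p below 0.0286. Ptpn11 reached that smallest p. For Akt1 and for Ptpn1 the exact permutation p was 0.0571, and for the remaining genes it was 0.171 for Adipor1, 0.257 for Pik3r1 and 0.743 for Socs3. None of these 6 values is corrected for the number of genes.

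The activators and the dampening genes did not form opposite sides. The 2 tested activators, Pik3r1 and Akt1, had log2 differences of 0.43 and 1.00. The 3 tested dampeners ran from -0.60 for Ptpn11 through -0.09 for Socs3 to 0.66 for Ptpn1, with a median of -0.09, where the median of all probes tested was -0.00. Ptpn1 thus lay between both activators, and SHP2, the phosphatase with a forward role as well, lay lowest. The dampener median was 0.09 without low gainer array 3 and -0.34 without low gainer array 4. The sides hold too few tested genes for a test between them, and these medians are descriptions.

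Several of the differences came together on low gainer array 3. Relative to each gene's mean over the 7 arrays, the log2 value on that array was -1.46 for Akt1, -1.25 for Ptpn1 and -0.73 for Pik3r1, and it was 0.43 for Adipor1 and 0.44 for Socs3. After normalization it was the lowest of the 7 arrays for Akt1, Ptpn1 and Pik3r1 and the highest for Adipor1 and Socs3. Over all probes, low gainer array 3 was the lowest array for 17.6% and the highest for 23.7% of 11169 probes, and low gainer array 4 for 24.6% and 22.3%. The high gainer arrays were lowest for between 8.62% and 14.0% of probes. Low gainer arrays 3 and 4 were thus at an extreme more often than any other array of the comparison. Among 500 probes of brightness like that of Akt1, the median SD between low gainer arrays was 0.34 and that between high gainer arrays 0.22 on the log2 scale, while Akt1 itself had 0.81 and 0.28.

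Markers of some other cell types also differed with the pools or with that array, and of the marker lists only the pituitary one held genes called by limma. All 3 tested genes of a pituitary list of 20 (Gh, Prl and Cga) were called higher in high gainers by limma, where 0.0269% of all probes were called. These 3 were the only probes called among the 11169 tested. Their summed intensities lay between 8.30 and 10.4 on high gainer arrays and between 0.837 and 1.38 on low gainer arrays. The pituitary genes Pitx1, Lhx4, Ghrhr and Trhr had no value on the 7 arrays. All 6 tested oligodendrocyte genes of 11 had a positive difference. At an unadjusted p under 0.05 by limma, 2 of the 6 were higher, where 3.07% of all probes were higher, and 0 were called. The pools overlapped for Mog, Cnp, Cldn11 and Trf and did not for Mbp and Mag, where 4.77% of all probes were without overlap. Summed intensities lay between 57.0 and 90.2 in high gainers and between 17.5 and 56.8 in low gainers, a narrow gap. Mbp gave the most to these sums on every array. The oligodendrocyte median was lowest on low gainer array 3, at -0.90 from its mean, as it was for Akt1, and highest on high gainer array 2, at 0.72. On low gainer array 4 it was 0.265, above high gainer arrays 3 (-0.002) and 4 (0.061). The 3 tested red cell genes of 8 had negative differences, with summed intensities between 8.94 and 14.8 in high gainers and between 18.4 and 37.2 in low gainers, nearly all of it from Hba-a1. At an unadjusted p under 0.05 by limma, 2 of these red cell genes were lower, where 3.41% of all probes were lower, and 0 were called. For Hba-a1 limma gave an unadjusted p of 0.000283 and an adjusted p of 0.526. Alas2 had a log2 difference of -0.16 with overlap. Among the hypothalamic genes, 11 were negative and 1 positive (median log2 difference -0.21). By limma, 2 of them (Npy and Hcrt) were lower at an unadjusted p under 0.05, where 3.41% of all probes were lower, with 0 called. Choroid plexus genes were negative in 4 of 5 tested, with 0 called. The astrocyte, microglia and endothelium lists had median log2 differences of 0.16, 0.04 and 0.14. Each of these held 0 genes at an unadjusted p under 0.05 by limma. The part of these cells in the values of the signalling genes was not tested.

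**Figure D3:**
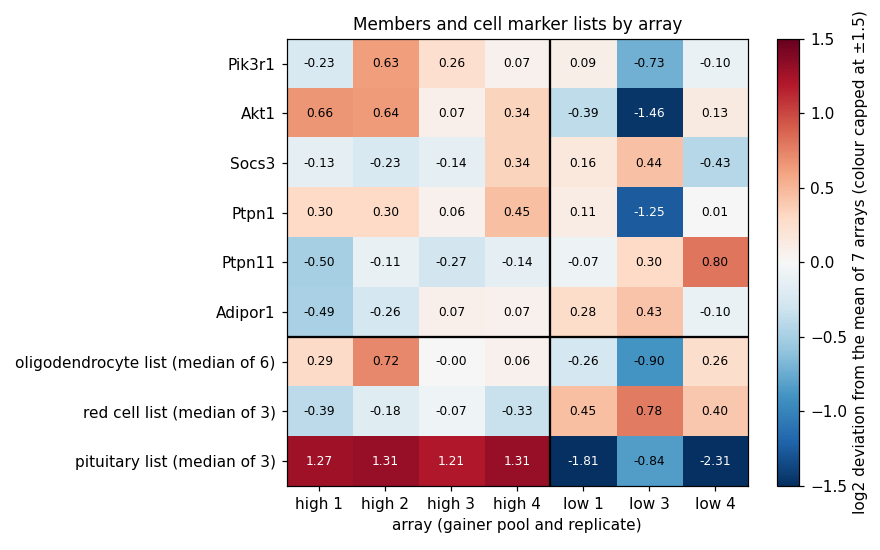
Log2 deviation of each array from the mean of 7 arrays for the 6 tested genes and, below the black line, the median of 3 cell marker lists; red is above and blue below the mean, with colour capped at 1.5 and the values printed in the cells. Low gainer array 3 holds -1.46 for Akt1, -1.25 for Ptpn1 and -0.90 for the oligodendrocyte list.

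Low gainer array 2 listed other values for most of these genes, with the doubt given above on whether they belong to these probes. The listed intensity was 2.83 for Ptpn1, which is 4.90 times the mean of the other low gainer arrays, and 9.41 for Ptpn11, which is 2.36 times that mean. For Adipor1 it was 1.39, or 0.107 times the mean. For Akt1 it was 1.36 and for Socs3 0.866, and Pik3r1 had no value on this array. With all 8 arrays the log2 difference was -0.11 for Ptpn1 and 0.28 for Adipor1, the other sign in each case, while it was -1.0 for Ptpn11 and 0.60 for Akt1. The adjusted p by limma was between 0.717 and 0.936 for the 5 genes that could be tested with it. The sign for Ptpn1 and for Adipor1 thus turned when this array was used. Since its values may belong to other probes, that turn tells nothing about the direction of either gene.

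The wider insulin pathway gave small positive differences without a call. Of 35 genes from the insulin receptor to Akt and mTOR, 16 were tested, 13 had a positive and 3 a negative difference, and the median log2 difference was 0.18, where 49.6% of all probes tested had a positive difference. At an unadjusted p under 0.05 by limma, 2 of the 16 were higher (Akt1 and Pik3r2) and 0 lower, where 3.07% of all probes were higher and 3.41% lower. Pik3r2, the p85 beta subunit of PI3-kinase, averaged 0.605 ± 0.125 in high gainers (SD, n = 4) and 0.375 ± 0.114 in low gainers (SD, n = 3). The ratio was 1.58 (limma adjusted p 0.752), the pools overlapped, and low gainer array 3 held the lowest value, 0.252. Pik3r3, another regulatory subunit, had a log2 difference of 0.01, so that the 3 subunits did not share one value. Akt2, the close relative of Akt1, was at 1.17-fold, and Grb2, an adaptor to Ras, was also at 1.17-fold. Rps6, the ribosomal protein phosphorylated downstream of mTOR, was at 0.844-fold. Without low gainer array 3 the median of this list was 0.02.

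Genes of the leptin receptor and JAK-STAT arm were mostly not measured on all arrays. Of 18 genes 5 were tested, and 0 passed at an unadjusted p under 0.05 by limma. Tyk2, a Janus kinase, stood at 0.42 on the log2 scale (95% interval -0.10 to 0.95). Il6st, the gp130 subunit shared by cytokine receptors, was at -0.17, and Leprot and Leprotl1, which affect the surface level of the leptin receptor, were at 0.14 and 0.12. Stat5b was at 0.06. The median of the list was 0.12.

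Phosphatases and other dampeners were spread on both sides. Of 48 genes 17 were tested, with 7 positive and 10 negative differences and a median log2 difference of -0.07, which lay between -0.071 and 0.0039 with an array left out. Only Ptpn11 passed an unadjusted p of 0.05 by limma, and 0 passed the adjusted threshold. Deptor, an inhibitor bound to mTOR, averaged 2.44 ± 0.166 in high gainers (SD, n = 4) and 3.09 ± 0.344 in low gainers (SD, n = 3), with no overlap of the pools and a limma adjusted p of 0.787. Ptprf, the receptor phosphatase LAR, was at 0.760-fold. Ppp2r1a, the scaffold subunit of protein phosphatase 2A, was at 1.42-fold, and its values ran from 4.78 to 7.58 in high gainers and from 2.55 to 6.44 in low gainers. Ppp2cb, a catalytic subunit of the same enzyme, was at -0.16 with its brighter probe and at 0.03 with its dimmer probe on the log2 scale. Socs1, Socs2, Socs5 and Socs6, relatives of Socs3, had log2 differences between -0.02 and 0.35.

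Of 22 targets and partners of Akt 9 were tested, 6 were positive and 3 negative, the median was 0.11, and 2 were higher at an unadjusted p under 0.05 by limma (Ywhab and Ywhaz) with none lower, where 3.07% of all probes were higher and 3.41% lower. Both encode 14-3-3 proteins, which bind phosphorylated Akt targets in the cytoplasm. Ywhab, 14-3-3 beta, had an intensity of 5.87, 6.70, 3.19 and 3.84 on high gainer arrays 1 to 4, against 2.66, 1.68 and 4.32 on low gainer arrays 1, 3 and 4, with overlap. Ywhaz, 14-3-3 zeta, had 126, 108, 122 and 127 on high gainer arrays, against 98.0, 102 and 80.6 on low gainer arrays 1, 3 and 4, with no overlap. The 2 other Ywhaz probes had log2 differences of 0.76 and 0.64, the same sign as the 0.35 of the brightest, and for both the pools overlapped. The adjusted p by limma was 0.750 for Ywhab and for the brightest Ywhaz probe. Ywhae, 14-3-3 epsilon, was at 1.21-fold and Ywhah, 14-3-3 eta, at 0.785-fold, while Ywhag, 14-3-3 gamma, had a log2 difference of 0.11. Foxo1, a transcription factor that Akt phosphorylates, had a log2 difference of -0.17, and Gsk3b, a kinase that Akt inhibits, of 0.01.

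The adiponectin receptor and AMP-activated kinase list had 10 of 18 genes tested, with 6 positive and 4 negative differences, a median of 0.06 and 0 genes at an unadjusted p under 0.05 by limma. Adipor1 had the largest difference of this list in size. Prkab1, a kinase subunit, was at 1.20-fold, Camkk2, an upstream kinase, at 1.15-fold and Stk11, which encodes the upstream kinase LKB1, at 1.16-fold. On the Ras-MAP kinase arm 4 of 18 genes were tested. Dusp6, a phosphatase of the MAP kinase ERK, was at 1.20-fold and Araf, a Raf kinase, at 1.10-fold. Map2k1 and Map2k2, the kinases that activate ERK, had log2 differences of 0.03 and -0.13, and 0 of the 4 passed at an unadjusted p under 0.05 by limma.

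**Figure D4:**
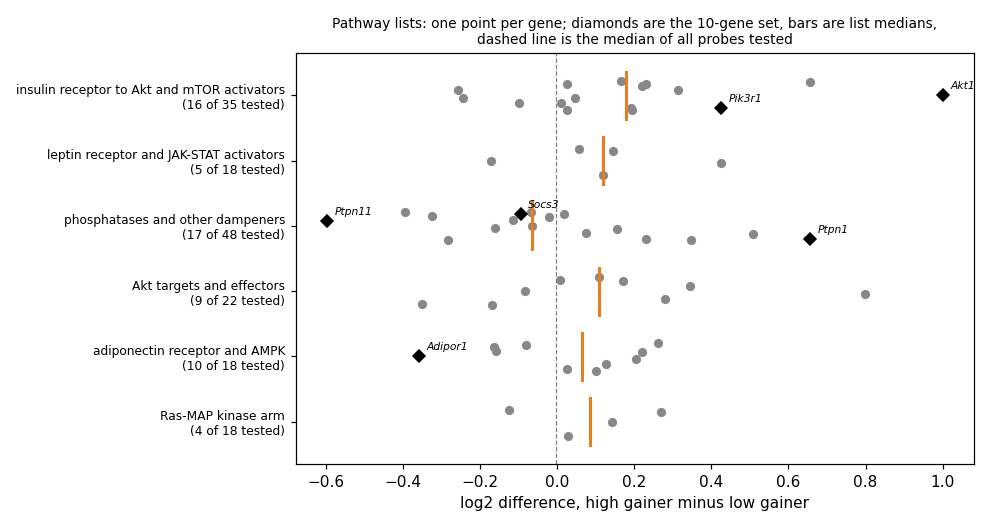
Log2 difference, high gainer minus low gainer, for every tested gene of 6 pathway lists, with genes of the 10-gene set as black diamonds, the median of each list as an orange bar and the median of all probes tested as a dashed line. Akt1 at 1.00 lies farthest right and Ptpn11 at -0.60 farthest left.

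The genes whose array pattern was most like that of Akt1 were Dapk3, a cell death-associated kinase, with a Pearson r of 0.996 over the 7 arrays, Cd82, a tetraspanin, with 0.992, and Pik3ip1, an inhibitor of PI3-kinase, with 0.990. Of 6331 probes naming 1 gene, 117 had an r of at least 0.9 with Akt1 and 54 an r of at most -0.9. Within the set, Ptpn1 followed Akt1 with an r of 0.921 and Adipor1 ran against it with an r of -0.872. These values describe 7 arrays of 2 pools that share their noise, and low gainer array 3 is extreme in all 3 genes of the set.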

How the data were processed

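The authors hybridised digoxigenin-labelled cRNA to 1-colour arrays and read chemiluminescence and normalized signals by a quantile method, per the methods. The deposited table holds linear intensities, with many cells empty, and its columns do not share one distribution. No source used here gives the build behind the probes. Probes were named from the platform annotation (14411 with 1 gene, 247 with several, 18354 with none), and 14402 matched RefSeq of GRCm38.p6 by gene identifier. Groups came from the sample titles. Log2 intensities of 11169 probes with a value on 7 arrays were quantile normalized again and tested with limma 3.58.1 in R 4.3.3 (eBayes with a trend), p-values being adjusted by Benjamini-Hochberg over all of these (threshold 0.05). The procedure was tested on simulated data. Precision is limited by the number of arrays. The brightest probe stood for a gene in lists. Named genes were all of the set, up to 4 others per list by smallest p, called cell markers, and the 3 genes most like the member with the smallest p. Other genes named (Pik3r3, Stat5b, Socs1, Socs2, Socs5, Socs6, Foxo1, Gsk3b, Ywhag and, for markers, Mbp, Mag, Mog, Cnp, Cldn11, Trf, Hba-a1, Alas2, Npy, Hcrt, Avp and Oxt) were chosen after values were seen. The members and lists were chosen with earlier results of these data known. Alternatives were all 8 arrays, other normalizations, a brightness filter, missing values allowed, a pseudocount of 0.186, array weights and a fit without the trend. Further ones were a block for the replicate number, arrays left out, an exact permutation test and a t-test in place of the methods' ANOVA. Promoter sequences are RefSeq's.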

Additional observations from a re-analysis of the deposited data

Results flagged for a closer look

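In 66 groups of 4 arrays examined for the named genes, 9 held 1 array far from the other 3. The limit used is passed by about 1 group in 20 by chance, and 7 of the 9 were due to low gainer array 2, already known to stand apart. On high gainer arrays, Socs3 had 0.759 on array 4 and Deptor had 2.68 on array 1, each above the other 3. Whether the values listed on low gainer array 2 belong to these probes could not be settled. As listed, they were highest for Akt2 (6.71), Il6st (19.2), Leprotl1 (16.3), Map2k2 (141.6) and Ptprf (2.32), and lowest for Grb2 (0.629) and Map2k1 (0.163). That array also listed values above every other low gainer array with a value for Akt1 (1.36), Stat3 (1.55), Socs3 (0.866), Ptpn1 (2.83) and Ptpn11 (9.41). It was not part of the 7-array comparison, and the cause of its values was not tested.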

How the results depend on the processing

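No signalling gene of the set was called at an adjusted p of 0.05 by limma under any alternative run, nor by the t-test. The number at an unadjusted p under 0.05 was 2 by limma on 7 arrays, 1 with all 8 arrays and 1 with the brightest 50% of probes (2 genes left). It was 1 by the exact permutation test and 0 by the t-test. By limma it was 3 with median centring, cyclic loess or array weights, and it ran from 2 to 3 with an array left out. The shares of all probes under these alternatives are not given here, so the counts stand without a background. Over all probes at the adjusted threshold, limma called 3, and 1 with all 8 arrays and 1 with the brightest 50%. The t-test called 0 after Benjamini-Hochberg, and took 19 at the limits the methods name. With an array left out limma called between 2 and 171, the 171 being without low gainer array 1. The sign turned for Ptpn1 (-0.11) and Adipor1 (0.28) with all 8 arrays and for Socs3 without low gainer array 3 (0.092). Akt1, Pik3r1 and Ptpn11 kept their sign in every alternative that could give a value. With all 8 arrays the dampener median was -0.38, and with an array left out it ran from -0.34 to 0.092. List medians with all 8 arrays were 0.60 for insulin activators (7 genes), -0.56 for JAK-STAT (5 genes) and -0.52 for dampeners (9 genes). They were 0.48 for Akt targets (5 genes) and 0.52 for AMP-activated kinase (4 genes). Except for JAK-STAT, these are fewer genes than on 7 arrays, so the medians do not compare the same genes. With an array left out the medians ran from 0.024 to 0.24 for insulin activators and from -0.029 to 0.13 for JAK-STAT. They ran from 0.081 to 0.26 for Akt targets and from 0.024 to 0.25 for the Ras-MAP kinase arm. Leaving out low gainer array 3 let more genes be tested, 17 for insulin activators and 6 for the Ras-MAP kinase arm. The insulin median was 0.027 with the brightest 50%, which left 6 genes of that list. The causes were not tested.

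With the replicate number as a block, limma called 9 probes where it called 3 without it, and 0 of the set. Pairing of the arrays by number was not seen, though 3 pairs are too few to exclude it. Deviations of the 3 same-numbered pairs correlated at -0.20, 0.13 and -0.14, and 0 of 6 arrays correlated best with its own number.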
